A study of Mus musculus with 9 samples.

Results

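The antioxidant and glutathione enzymes described here are 33 genes, taken by symbol from the 52381 genes of a table of RNA sequencing values from mouse lung, with 1 row per symbol. They were divided by role into 12 genes counted as inducible by the transcription factor Nrf2, 7 glutathione S-transferases, 12 constitutive enzymes, and the 2 regulators Nfe2l2 and Keap1. The study compared lungs of 4 mice in which lipopolysaccharide (LPS) had caused acute lung injury, called LPS-ALI, with those of 5 mice with the same injury that had also been given trimethylamine N-oxide (TMAO), a metabolite of gut bacterial origin. All 9 mice therefore carried the LPS injury, and uninjured lungs are not analysed here. The sources used here give no strain, age, dose or time, and each library is labelled as a separate mouse. The design text asks what TMAO does in this injury.

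Nrf2, encoded by Nfe2l2, is held in the cytoplasm and sent for degradation by Keap1. Oxidants and electrophiles modify cysteines of Keap1, after which Nrf2 accumulates, pairs with small Maf proteins and binds antioxidant response elements near genes for glutathione synthesis, thioredoxin reduction and detoxification. In the lung these systems stand beside enzymes made at all times, such as superoxide dismutases, catalase and peroxiredoxins, which limit oxidants released by neutrophils and macrophages during injury.

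Values are FPKM, fragments scaled to gene length and to the library's mapped fragments. Relative sequencing depth, read from the spacing of low values, was 0.496 to 1 in LPS-ALI and 0.382 to 0.683 in TMAO libraries, and absolute depth is unknown. The mitochondrial share of summed FPKM was 33.4% to 52.2%. A code in the labels starts with X for LPS-ALI replicates 3 and 4 and with B for the other 7 libraries, all TMAO libraries included, and the labels do not state its meaning. The labels name lung, while the extraction text names platelets. Alveolar type 2 markers summed to 1313 to 15295 FPKM, and platelet markers to 22.3 to 87.4. A total of 11817 genes with at least 1 FPKM in at least 4 libraries was tested with limma on log2(FPKM + 1), a scale that understates changes of low genes. The median tested gene was lower in TMAO lungs by a log2 difference of -0.17, which became 0.05 without TMAO replicate 5, the shallowest library. Log2 differences are TMAO minus LPS-ALI and are given relative to that median gene unless called unshifted. P-values belong to the unshifted difference, and those given for single genes are from a 2-sided exact permutation test, whose smallest possible value is 0.00794. Adjusted over all tested genes, the exact permutation p was 1 for each member, while unadjusted it was under 0.05 for 3 of the 31, against 4.05% of all genes.

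Of the 33 genes, 31 were tested, and 0 passed an adjusted limma p of 0.05, as did 0.0% of all tested genes. The limma adjusted p was 0.998 for each of the 31. At an unadjusted limma p under 0.05, 4 genes were lower in TMAO lungs (Hmox1, Sod2, Gsta4 and Prdx5) and 0 higher, where 2.93% of all tested genes were lower and 0.423% higher. With each library centred on its median gene before the fit, such a p was reached by 3 lower genes (Hmox1, Gsta4 and Sod2) and 1 higher gene (Gstm1), against 3.71% and 3.5% of all genes. Relative to the median gene, 22 of 31 lay lower, against 50.0% of all genes by construction. LPS-ALI replicate 4 held the highest value of all 9 libraries for 18 of the 31 genes, against 26.9% of all tested genes, and the lowest for 3 (Gstm1, Gstm2 and Prdx2), against 7.8%. TMAO replicate 5 was lowest for 22 of the 31, against 74.3% of all genes. Without LPS-ALI replicate 4, 19 of 31 lay below the median gene and 0 had an unadjusted limma p under 0.05, against 2.12% of all genes tested then. Without TMAO replicate 5, 3 genes had such a p (Gpx4 and Prdx5 lower, Gstm1 higher), against 7.24% of all genes tested then. Without both libraries 1 gene, Gpx4, had one, against 7.27%. Without the X-coded libraries 0 did, against 1.4%, while 22 of 31 lay below the median gene, and the medians were -0.03 for the inducible genes and -0.17 for the constitutive enzymes. In bulk tissue, fewer cells of a type and less RNA per cell cannot be told apart.

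Most of the Nrf2-inducible genes had their highest value in LPS-ALI replicate 4, by steps of unequal size. Of the 12 genes 11 were tested, and 10 of these 11 had their highest value in that library. Their mean log2 level above the median gene of the same library was 3.07 in LPS-ALI replicate 4. It was 1.46, 1.54 and 1.50 in the other LPS-ALI libraries and 1.39 to 1.72 in the TMAO libraries. The median relative difference of the 11 genes was -0.23, against 0 for all tested genes by construction, and 0.01 without LPS-ALI replicate 4.

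Gpx2, a selenium-dependent glutathione peroxidase of epithelia (chromosome 12, 76792333 to 76795554, minus strand, GRCm38), differed most between libraries. It had 1.77, 2.66, 2.34 and 77.4 FPKM in LPS-ALI replicates 1 to 4, and 1.54, 1.41, 4.24, 2.40 and 3.92 FPKM in TMAO replicates 1 to 5. The first 3 LPS-ALI lungs lay within the TMAO range, and LPS-ALI replicate 4 was 33.1-fold above their median. After centring each library on its median gene, only 5 of the 11817 tested genes stood further above the other LPS-ALI libraries there. The relative difference of -0.86 between the groups (exact permutation p = 0.460) became 0.25 without that library.

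Glutathione is built from glutamate, cysteine and glycine, and Gclc and Gclm encode the catalytic and modifier subunits of glutamate-cysteine ligase, its rate-limiting enzyme. Gclc (chromosome 9, 77754535 to 77794485) had 10.2, 9.37, 8.11 and 67.5 FPKM in the LPS-ALI group and 7.56, 12.8, 9.63, 13.8 and 2.10 FPKM in TMAO replicates 1 to 5. Replicate 4 was thus 7.20-fold above the median of the other LPS-ALI lungs, whose values lay inside the TMAO range. The relative difference of Gclc was -0.70 (exact permutation p = 0.421) and -0.05 without replicate 4. Gclm had 22.3, 25.5, 13.7 and 41.7 FPKM in the LPS-ALI group and 17.9, 27.1, 23.7, 36.4 and 11.8 FPKM in the TMAO group, with full overlap and a relative difference of 0.05 (exact permutation p = 0.754). That of Gclm was -0.14 without LPS-ALI replicate 3. Its replicate 4 value was 1.87-fold above the others, a smaller step than for the catalytic subunit. Slc7a11, the cystine importer that feeds this synthesis, was too low to be tested, with 0.61 to 1.47 FPKM in the LPS-ALI group and 0.25 to 0.76 FPKM in the TMAO group. LPS-ALI replicate 4, at 1.08 FPKM, was not its highest library. Gsr, which returns oxidised glutathione to its reduced form, had 57.4, 43.0, 43.0 and 61.3 FPKM in the LPS-ALI group and 37.4, 53.2, 37.4, 55.4 and 18.9 FPKM in the TMAO group. Its groups overlapped (relative difference -0.23, exact permutation p = 0.286).

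In the thioredoxin arm, Txnrd1 and Srxn1 also stood out in LPS-ALI replicate 4. Txnrd1, the cytosolic thioredoxin reductase, had 15.8, 13.7, 13.1 and 65.0 FPKM in the LPS-ALI group and 12.1, 15.4, 16.5, 20.5 and 4.40 FPKM in the TMAO group. Srxn1, the sulfiredoxin that repairs overoxidised peroxiredoxins, had 8.23, 7.71, 6.59 and 46.7 FPKM against 6.77, 13.3, 9.63, 14.8 and 2.18 FPKM. In both genes LPS-ALI replicate 4 stood alone, 4.75-fold and 6.06-fold above the median of the other LPS-ALI lungs, and TMAO replicate 5 was lowest. Their relative differences of -0.54 and -0.37 (exact permutation p = 0.413 and 0.540) were -0.04 and 0.22 without replicate 4. Prdx1 and Txn1, a cytosolic peroxiredoxin and thioredoxin itself, had 227 ± 88.0 and 303 ± 112 FPKM (SD, n = 4) without and 175 ± 39.9 and 228 ± 19.8 FPKM (SD, n = 5) with TMAO. Replicate 4 exceeded the median of the other LPS-ALI lungs 1.76-fold for both genes.

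Nqo1, a quinone reductase often used as an Nrf2 readout, was low throughout, with 1.67, 1.29, 1.69 and 6.66 FPKM in the LPS-ALI group and 1.06, 1.41, 1.83, 2.13 and 1.37 FPKM in the TMAO group. Replicate 4 was 3.99-fold above the median of the other LPS-ALI lungs, and the remaining 8 libraries lay between 1.06 and 2.13. The relative difference was -0.23 (exact permutation p = 0.373), and 0.13 without replicate 4. G6pdx, which supplies NADPH through the pentose phosphate pathway, had 22.8 ± 2.64 FPKM in the LPS-ALI group and 18.5 ± 6.45 in TMAO lungs (SD, n = 4 and 5). Its level in replicate 4, 21.7 FPKM, lay within the 20.3 to 26.5 FPKM of the other LPS-ALI lungs.

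**Figure D1:**
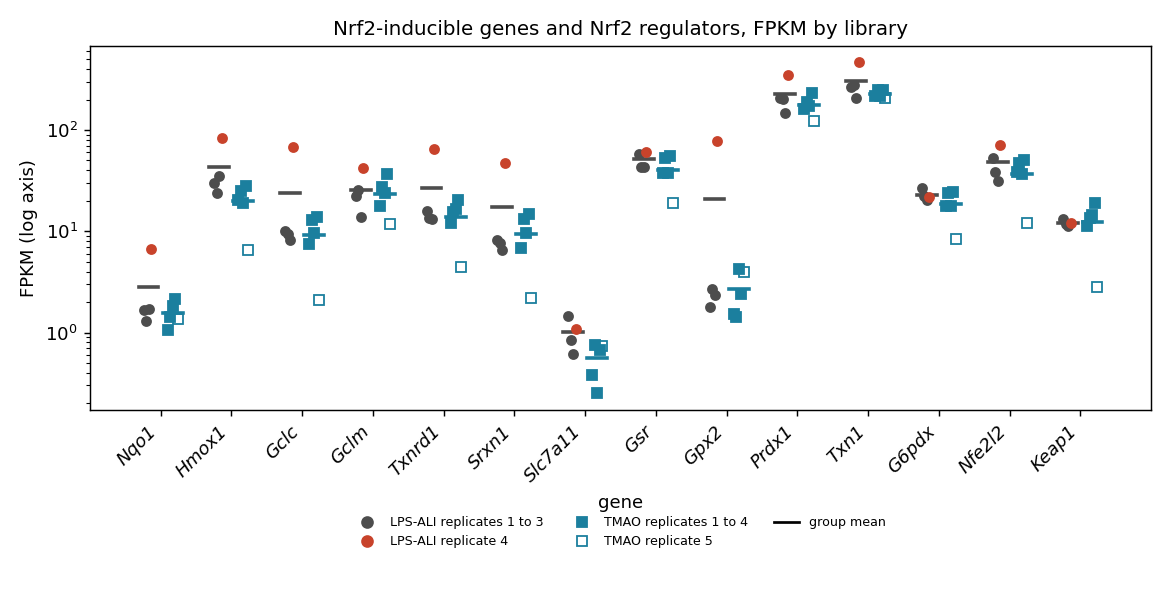
FPKM (log axis) of the Nrf2-inducible genes and of Nfe2l2 and Keap1 in each library, with group means as bars. LPS-ALI replicate 4 is highest for 10 of the 11 tested inducible genes, and TMAO replicate 5 is low for most genes.

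Hmox1 encodes haem oxygenase 1, which breaks down haem and is induced by haem and by oxidants. With all libraries it had the lowest relative difference of the inducible genes, -0.88 against -0.86 for Gpx2. Without TMAO replicate 5 the order changed, with -0.77 for Hmox1 and -1.20 for Gpx2. Hmox1 (chromosome 8, 75093621 to 75100589) had 29.8, 23.8, 35.5 and 82.5 FPKM in the LPS-ALI group and 20.5, 24.7, 19.0, 27.9 and 6.48 FPKM in the TMAO group. The groups overlapped in FPKM, since LPS-ALI replicate 2 lay below TMAO replicates 2 and 4. On the log2 scale centred on the median gene they did not overlap, with 1.75 to 3.41 in the LPS-ALI group and 1.16 to 1.68 in the TMAO group. Hmox1 was the only 1 of the 31 genes without overlap on that scale, against 1.7% of all tested genes lower in TMAO and 1.72% higher. The unshifted difference was -1.05 ± 0.45 (SE, limma adjusted p = 0.998, exact permutation p = 0.0397) and the relative difference -0.88. Without replicate 4 the relative difference was -0.55, and without the LPS-ALI libraries whose codes begin with X, replicates 3 and 4, it was -0.33.

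The regulators differed from each other in LPS-ALI replicate 4. Nfe2l2 had 53.0, 38.6, 31.6 and 71.3 FPKM in the LPS-ALI group and 38.2, 47.5, 37.0, 50.3 and 12.0 FPKM in the TMAO group, so 4 of the 5 TMAO lungs lay inside the LPS-ALI range (relative difference -0.29, exact permutation p = 0.421). That of Nfe2l2 was -0.13 without replicate 4 and -0.16 without TMAO replicate 5. Keap1 had 13.3, 11.8, 11.2 and 12.1 FPKM in the LPS-ALI group, and 11.2, 13.6, 14.6, 18.9 and 2.82 FPKM in the TMAO group. Its relative difference was -0.001 (exact permutation p = 0.952) and changed sign under several settings. In replicate 4 Nfe2l2 was 1.85-fold and Keap1 1.02-fold the median of the other LPS-ALI lungs.

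The antioxidant response element was searched in RefSeq windows (GRCm38.p6) of 300 bases, from 250 before to 50 after a gene's start. The letters were TGACNNNGC, its core, and TGANTCAGC, the Maf-type form that overlaps it at TGACTCAGC, each on both strands. Windows were at hand for 27 of the 33 genes, and 9 of these 27 held a match, 5 of them among 9 inducible genes and 1 among 10 constitutive enzymes. Some genes have several windows, and counted by window 9 of 33 held a match, or 27.3%. Of all 32851 windows 13.0% held a match, 12.4% the core and 1.19% the Maf-type form. A match describes the letters only. The 4 windows below belong to inducible genes described above whose level was high in replicate 4, and were chosen after their values were seen. Capitals mark the matches.
Srxn1 (chr2:152105274-152105573, plus strand): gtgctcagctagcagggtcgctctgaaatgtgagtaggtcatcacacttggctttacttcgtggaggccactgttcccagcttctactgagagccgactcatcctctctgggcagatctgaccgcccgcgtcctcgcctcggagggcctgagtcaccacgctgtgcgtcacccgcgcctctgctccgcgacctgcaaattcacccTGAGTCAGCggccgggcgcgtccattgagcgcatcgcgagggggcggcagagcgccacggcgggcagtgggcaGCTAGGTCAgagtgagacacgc
Gclm (chr3:122245307-122245606, plus strand): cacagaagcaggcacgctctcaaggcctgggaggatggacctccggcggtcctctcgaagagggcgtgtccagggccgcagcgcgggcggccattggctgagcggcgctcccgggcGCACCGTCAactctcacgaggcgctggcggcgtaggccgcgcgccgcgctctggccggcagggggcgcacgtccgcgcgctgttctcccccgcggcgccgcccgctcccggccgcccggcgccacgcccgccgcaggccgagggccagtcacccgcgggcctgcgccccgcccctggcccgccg
Txnrd1 (chr10:82858956-82859255, plus strand): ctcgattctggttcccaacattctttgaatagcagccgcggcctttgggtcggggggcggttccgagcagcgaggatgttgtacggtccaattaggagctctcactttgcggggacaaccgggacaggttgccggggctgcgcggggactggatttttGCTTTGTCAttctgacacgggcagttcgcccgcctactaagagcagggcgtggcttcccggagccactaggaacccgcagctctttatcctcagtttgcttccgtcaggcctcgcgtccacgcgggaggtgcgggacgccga
Prdx1 (chr4:116685349-116685648, plus strand): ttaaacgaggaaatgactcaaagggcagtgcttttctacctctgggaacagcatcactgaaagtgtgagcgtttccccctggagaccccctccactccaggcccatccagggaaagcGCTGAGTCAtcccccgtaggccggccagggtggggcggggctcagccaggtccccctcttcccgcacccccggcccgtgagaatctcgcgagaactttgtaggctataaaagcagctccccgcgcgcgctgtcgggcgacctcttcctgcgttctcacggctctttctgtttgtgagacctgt
Srxn1 held a match on each strand, TGAGTCAGC starting 45 bases before the gene's start and TGACCTAGC on the opposite strand. On the opposite strand too, Gclm held TGACGGTGC, Txnrd1 TGACAAAGC and Prdx1 TGACTCAGC. The Txnrd1 window is that of 1 of the starts RefSeq lists for the gene, and its other windows held no match. The windows of Gpx2 and Nqo1, which also stood out in replicate 4, held no match, and neither did that of Txn1, also highest there. The window of G6pdx, which did not stand out, held TGACTGAGC. Nfe2l2 itself held TGACTCCGC, 240 bases before its start.

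LPS-ALI replicate 4 stood well above the other LPS-ALI lungs for a larger share of these genes than of all tested genes. Centred on the median gene, 11 of the 31 were more than 1 log2 unit above the median of replicates 1 to 3, against 8.64% of all tested genes. Only 3 were more than 1 unit below, a share close to the 9.88% of all tested genes. The inducible genes made up 6 of the 11, with a median of 1.50. The glutathione S-transferases, kept as a group of their own, made up 2 (Gsta4 and Gsto1), with a median of 0.18 and Gstm1 more than 1 unit below. These medians depend on how the genes were divided by role, and no other division was tried. The constitutive enzymes had a median of 0.01, with Prdx6, Sod2 and Prdx5 above and Sod3 and Prdx2 below. This library also differed in its cell type markers. Its alveolar type 2 markers, 10 of 10 tested, summed to 1313 FPKM, against 5052 to 15295 FPKM in the other 8 libraries. Its fibroblast and smooth muscle markers, 12 of 12 tested, summed to 261 FPKM against 633 to 1437 FPKM. Its red cell markers, 5 of 11 tested and Klf1 at 0 in every library, summed to 2327 FPKM against 124 to 291 FPKM. Its monocyte and macrophage markers, 11 of 12 tested, summed to 766 FPKM against 1309 to 3832 FPKM, and its alveolar macrophage markers, 11 of 12 tested, to 478 against 141 to 411 FPKM. The tested markers were also averaged as log2 levels above the median gene of the same library. On that mean, replicate 4 lay within the other 8 libraries for monocyte and macrophage markers, at 1.38 against 1.33 to 1.97. Its T and NK cell markers, 5 of 12 tested, summed to 88.4 FPKM against 11.8 to 45.5 FPKM, and its platelet markers, 7 of 11 tested, to 87.4 against 22.3 to 48.5 FPKM. The summed T and NK cell markers were also higher in every LPS-ALI lung (31.4 FPKM or more) than in any TMAO lung (at most 22.3 FPKM). So were the platelet markers (37.1 FPKM or more against at most 32.7 FPKM). All marker sums cover the listed genes found in the data, also those not tested, and include the lower median gene of the TMAO lungs. On the mean log2 level, which covers the tested markers only and weights them differently, the groups overlapped. The smallest LPS-ALI value was -1.10 for T and NK cell and -0.83 for platelet markers, and the largest TMAO value -0.25 for both. The summed neutrophil, endothelial, club and ciliated, and B cell markers of replicate 4 lay within the range of the other libraries. The neutrophil markers, 14 of 14 tested, were at 8035 against 7919 to 21291 FPKM. On the mean log2 level, however, its endothelial markers, 12 of 12 tested, were below the other 8 libraries, at 1.50 against 2.57 to 3.49. Its alveolar type 1 markers, 8 of 8 tested, summed to 2858 FPKM against 615 to 1416 FPKM. On the mean log2 level they were only slightly above the other 8 libraries, at 3.47 against 2.59 to 3.41. The same held for its platelet markers, at -0.24 against -1.36 to -0.25. Whether these cell type markers have a part in the levels of the antioxidant genes was not tested. With 1 such library, the contrast has no replicate check and is given without a test.

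**Figure D2:**
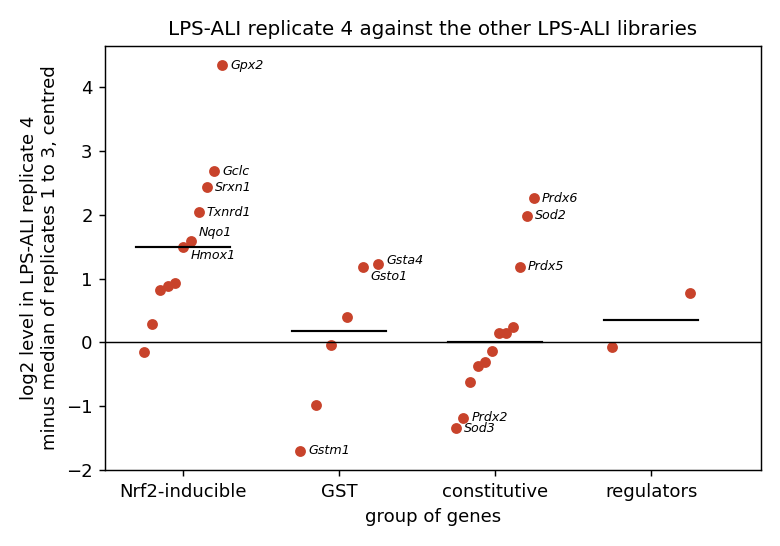
Log2 level of each tested gene in LPS-ALI replicate 4 minus the median of LPS-ALI replicates 1 to 3, each library centred on its median tested gene; points are genes, bars group medians. Gpx2, Gclc, Srxn1 and Txnrd1 lead the inducible genes (median 1.50), while the constitutive enzymes spread around 0 and Gstm1 lies lowest.

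Glutathione S-transferases couple glutathione to reactive compounds such as lipid peroxidation products. They did not move as a group: 3 of 6 tested genes lay above the median gene and 3 below, with a median of 0.12, and -0.07 without TMAO replicate 5. Gstm1 (chromosome 3, 108012255 to 108017973) had the highest relative difference of the 31 genes. It had 251, 258, 170 and 73.1 FPKM in the LPS-ALI group and 279, 339, 248, 351 and 200 FPKM in the TMAO group. Only LPS-ALI replicates 3 and 4 lay below all TMAO lungs, and both carry library codes beginning with X. The relative difference was 0.88 (exact permutation p = 0.103), 0.45 without replicate 4 and 0.34 without both X-coded libraries. Its neighbour Gstm2 had 93.2, 82.0, 60.3 and 44.1 FPKM against 66.9, 94.7, 68.2, 115 and 61.1 FPKM, again lowest in replicate 4 (relative difference 0.40, exact permutation p = 0.437). That of Gstm2 was 0.16 without replicate 4.

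The alpha-class genes diverged. Gsta3 had 100 FPKM in LPS-ALI replicate 1, then 66.7, 53.8 and 94.8 FPKM, and 68.7, 143, 103, 131 and 78.8 FPKM in the TMAO group, overlapping widely (relative difference 0.57, exact permutation p = 0.206). Gsta4, whose enzyme acts on the lipid peroxidation product 4-hydroxynonenal, had 18.6, 9.76, 9.77 and 28.1 FPKM in the LPS-ALI group and 5.75, 11.2, 10.2, 8.92 and 4.57 FPKM in the TMAO group. LPS-ALI replicates 1 and 4 lay above all TMAO lungs, and replicates 2 and 3 among them. The unshifted difference of Gsta4 was -0.88 ± 0.40 (SE, limma adjusted p = 0.998, exact permutation p = 0.0873) and its relative difference -0.71, or -0.46 without replicate 4. Gsta1 was listed at 0 in 8 libraries and had 0.55 FPKM in LPS-ALI replicate 4. Gstp1, the pi-class enzyme, had 149 ± 31.5 FPKM in the LPS-ALI group and 108 ± 23.9 FPKM in the TMAO group (SD, n = 4 and 5; relative difference -0.29). Gsto1, of the omega class, had 46.5 ± 22.2 and 34.4 ± 5.01 FPKM, with its highest value of 74.2 FPKM in replicate 4. Several of these genes have close copies in the genome, and the sources used here do not say how shared reads were counted, so levels within the family are uncertain.

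Among the constitutive enzymes, 7 of 12 lay below the median gene with all libraries, and 10 of 12 without LPS-ALI replicate 4. Their median relative difference was -0.08, and it was -0.21 without replicate 4 but 0.02 without LPS-ALI replicate 3. Superoxide dismutases turn superoxide into hydrogen peroxide. Sod2, the mitochondrial form, which inflammatory signals also induce, had the lowest relative difference of the 31 genes. Sod2 (chromosome 17, 13006846 to 13040063) had 106, 110, 136 and 467 FPKM in the LPS-ALI group and 71.5, 82.7, 120, 104 and 38.7 FPKM in the TMAO group. Only TMAO replicate 3 reached into the LPS-ALI range. The unshifted difference of Sod2 was -1.07 ± 0.45 (SE, limma adjusted p = 0.998, exact permutation p = 0.0556) and its relative difference -0.90, or -0.44 without replicate 4 and -0.24 without the X-coded libraries. Sod1, the cytosolic form, had 559, 516, 236 and 633 FPKM against 458, 493, 548, 495 and 472 FPKM, with LPS-ALI replicate 3 lowest (relative difference 0.28, 0.03 without that library and 0.08 without TMAO replicate 5). Sod3, the extracellular form, had 18.0 ± 7.77 and 18.2 ± 10.1 FPKM (SD, n = 4 and 5), lowest among LPS-ALI lungs in replicate 4 at 8.02 FPKM and lowest of all in TMAO replicate 5 at 3.93 FPKM.

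Glutathione peroxidases reduce peroxides with glutathione. Gpx3, the secreted plasma form, had the highest mean FPKM of the 33 genes in both groups, 1439 ± 361 in LPS-ALI and 1183 ± 409 in TMAO lungs (SD, n = 4 and 5; relative difference -0.16). Gpx4, which reduces lipid peroxides in membranes and guards against ferroptosis, lies on chromosome 10 (80047166 to 80056439). It had 449, 383, 506 and 478 FPKM in the LPS-ALI group and 288, 316, 355, 340 and 280 FPKM in the TMAO group. The groups did not overlap, and LPS-ALI replicate 4 was here within the range of its group. The unshifted difference of Gpx4 was -0.52 ± 0.25 (SE, limma adjusted p = 0.998, exact permutation p = 0.00794) and its relative difference -0.35. That of Gpx4 was -0.36 without replicate 4, -0.53 without TMAO replicate 5, -0.23 without LPS-ALI replicate 3, and -0.18 when both X-coded libraries were left out. After centring on the median gene the groups overlapped, because TMAO replicate 5 had the highest centred level of all libraries, 6.39. Gpx1, the abundant cytosolic form, had 344 ± 37.4 and 298 ± 37.1 FPKM (relative difference -0.04). Gss, the second enzyme of glutathione synthesis, had 6.68 ± 1.71 and 6.70 ± 2.72 FPKM, with 1.96 FPKM in TMAO replicate 5. Cat, which encodes catalase, had 26.9 ± 7.62 and 25.8 ± 10.8 FPKM, lowest in TMAO replicate 5 at 8.29 FPKM.

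Peroxiredoxins reduce peroxides with a reactive cysteine. Prdx5, found in mitochondria, peroxisomes and cytosol, lies on chromosome 19 (6906697 to 6910106). It had 199, 175, 210 and 435 FPKM in the LPS-ALI group and 123, 161, 160, 169 and 107 FPKM in the TMAO group, with no overlap. Its unshifted difference was -0.74 ± 0.32 (SE, limma adjusted p = 0.998, exact permutation p = 0.00794) and its relative difference -0.57. That of Prdx5 was -0.32 without replicate 4 and -0.18 without the X-coded libraries. Gpx4 and Prdx5 were the 2 of 31 genes with no overlap in FPKM, both lower in TMAO lungs, where 1.36% of all tested genes were lower without overlap and 0.118% higher. These FPKM counts include the lower median gene of the TMAO lungs. Prdx6, a peroxiredoxin with phospholipase activity that is abundant in alveolar type 2 cells, had 868, 550, 362 and 2826 FPKM in the LPS-ALI group and 353 to 576 FPKM in the TMAO group. It was 5.14-fold above the median of the other LPS-ALI lungs in the same library in which alveolar type 2 markers were lowest. Its relative difference of -0.63 (exact permutation p = 0.198) was -0.08 without that library. Prdx2, abundant in red cells, ran the other way, with 106, 106, 116 and 49.6 FPKM in the LPS-ALI group and 68.1 to 99.4 FPKM in the TMAO group. It was lowest in the library in which red cell markers were highest. Prdx3, the mitochondrial form, had 27.3 ± 5.29 and 22.8 ± 7.30 FPKM (SD, n = 4 and 5).

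**Figure D3:**
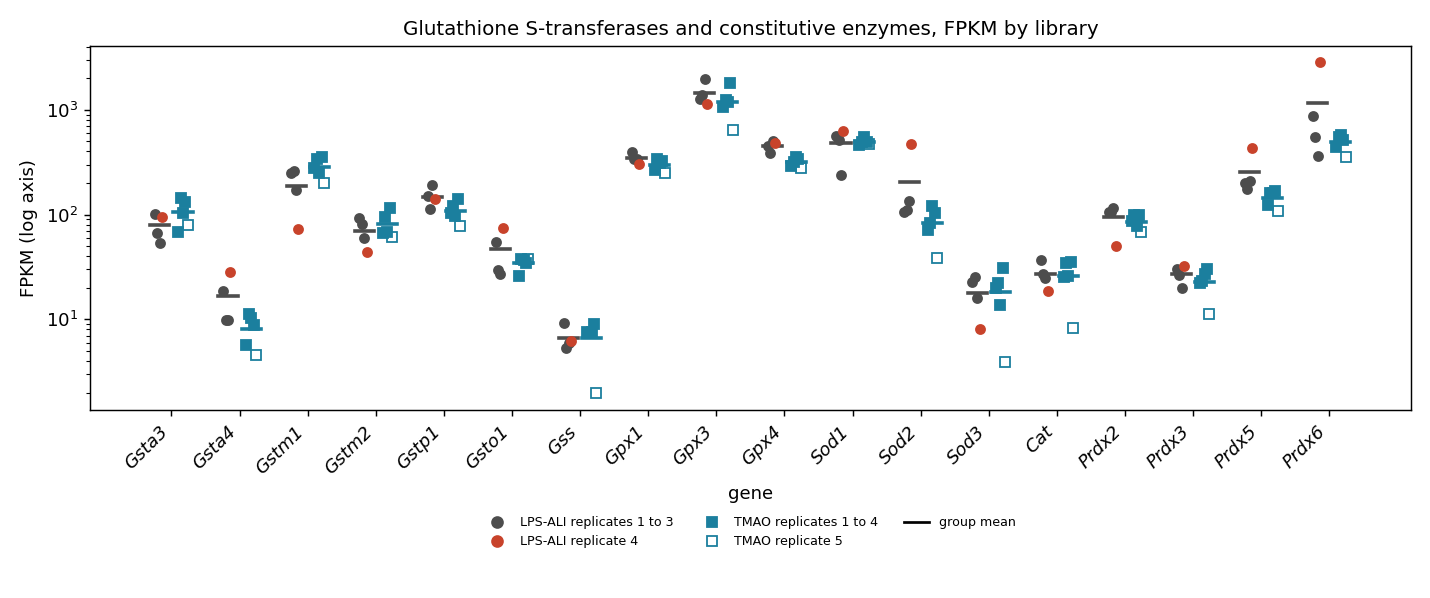
FPKM (log axis) of the glutathione S-transferases detected above 1 FPKM and of the constitutive enzymes in each library, with group means as bars. Gpx4 and Prdx5 show no overlap between groups, Prdx6 and Sod2 are highest in LPS-ALI replicate 4, and Gstm1 and Prdx2 are lowest there.

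None of the other genes listed for these pathways passed the adjusted limma threshold. Of 8 tested partners and regulators of Nrf2, 6 lay below the median gene (median -0.11), and 0 had an unadjusted limma p under 0.05. Sqstm1, whose product p62 binds Keap1, had 114 to 144 FPKM in LPS-ALI replicates 1 to 3, 596 FPKM in replicate 4 and 79.4 to 169 FPKM in the TMAO group. Maff, a small Maf gene, had 89.2 ± 54.7 and 53.7 ± 27.5 FPKM (SD, n = 4 and 5), highest in replicate 4 at 171 FPKM. Of 18 further Nrf2 target genes tested, 14 lay below the median gene (median -0.17, and -0.05 without replicate 4). Of these 18 genes, 13 had their highest value in replicate 4, against 26.9% of all tested genes. The one with the smallest p, the aldo-keto reductase Akr1b8, had 4.28, 3.75, 8.82 and 27.8 FPKM in the LPS-ALI group and 2.88 to 6.13 FPKM in the TMAO group (exact permutation p = 0.119). Of 31 further glutathione and thioredoxin genes tested, 19 lay below the median gene (median -0.06). In this list 3 had an unadjusted limma p under 0.05, all lower in TMAO lungs, and 0 passed the adjusted threshold. Of all tested genes, 2.93% were lower at such a p and 0.423% higher. The 3 genes were Gstp3, Mgst1, a microsomal transferase, and Ggct, which cleaves gamma-glutamyl peptides. Gstp3, a pi-class transferase and close copy of Gstp1, was low, with 2.11, 1.78, 3.81 and 3.69 FPKM in the LPS-ALI group. It had 0.66 to 1.49 FPKM in the TMAO group, without overlap in FPKM, as had 1.36% of all tested genes in this direction. After centring on the median gene its groups overlapped. The relative difference of Gstp3 was -0.69, and -0.30 without the X-coded libraries. Ggct had 10.2, 11.1, 18.1 and 41.8 FPKM in the LPS-ALI group and 3.54, 8.98, 5.41, 10.6 and 6.74 FPKM in the TMAO group (relative difference -1.09, -0.71 without replicate 4 and -0.39 without the X-coded libraries). Mgst1 had 190, 146, 90.3 and 181 FPKM against 73.4, 108, 76.7, 97.9 and 65.3 FPKM (relative difference -0.64, and -0.58 without replicate 4). In this list 4 of these 31 genes had their highest value in replicate 4, against 26.9% of all tested genes. The median centred level of the 31 genes there was -0.23 against the other LPS-ALI lungs.

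**Figure D4:**
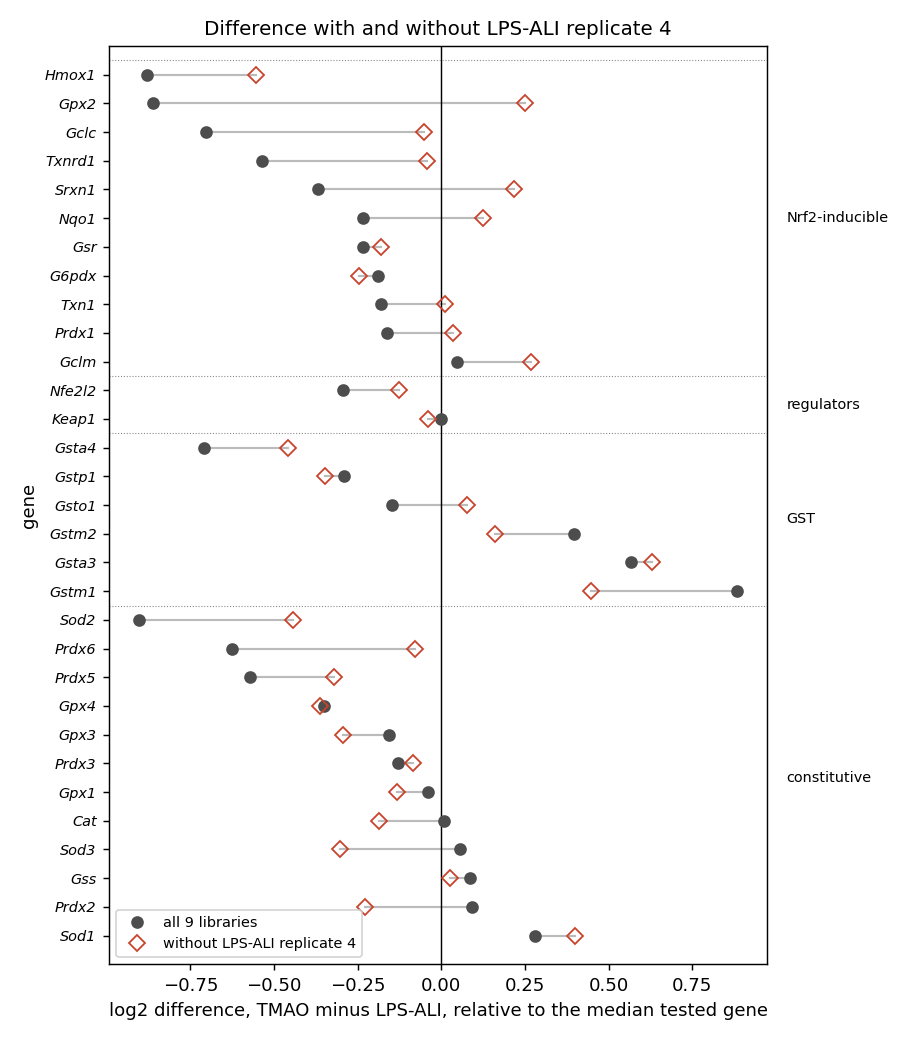
Relative log2 difference (TMAO minus LPS-ALI) of the 31 tested genes with all libraries (filled circles) and without LPS-ALI replicate 4 (open diamonds), by group. For Gpx2, Gclc, Txnrd1, Srxn1 and Prdx6 the difference shrinks to near 0 or changes sign, while Hmox1, Gsta4, Sod2, Prdx5 and Gpx4 stay below 0 and Gstm1 and Gsta3 above.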

How the data were processed

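RNA was sequenced from the lungs of 4 LPS-ALI and 5 TMAO mice, grouped by the labels' titles. Per the labels' protocols, libraries were made from rRNA-depleted total RNA. The authors deposited FPKM values rounded to 2 decimals, 1 column per library. The submitters' processing notes list fastp, HISAT2, featureCounts and SAMtools, with build mm10. The sources used here state no versions, annotation, strand setting or gene lengths.

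FPKM are not counts, so log2(FPKM + 1) was tested with limma 3.58.1 (R 4.3.3, mean-variance trend, two-sided, Benjamini-Hochberg over 11817 genes, threshold 0.05). P-values set the difference between the groups against the spread between mice of a group. Coordinates are from GENCODE M21 (GRCm38), to which 52073 of 52381 gene IDs matched. Tested on simulated data for this comparison, drawn from the spread of its 11817 genes, the fit found 3% of 2-fold and 49% of 4-fold changes. The members, gene groups and lists were chosen with earlier results of these data known. Values by library are given for the core inducible genes and regulators, for genes with an unadjusted p under 0.05 or no overlap, and for the 4 largest and 4 smallest relative differences. From each other list up to 4 genes with the smallest p could be named. Prdx6 and Prdx2 values by library were added after they were seen. The mouse numbers do not pair the groups. Alternatives were pseudocounts, filters, scalings, variance models, a replicate block and left-out libraries. Centring each library before the fit was added after the data were seen. Python 3.11.15, pandas 2.3.3 and matplotlib 3.10.9 were used.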

Additional observations from a re-analysis of the deposited data

Results flagged for a closer look

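Within a group, a library was singled out where its gap to the nearest other library, as a share of the group's range, exceeded Dixon's critical value. Chance does this in about 1 of 20 groups if values are normally distributed. The gaps were taken on FPKM, and the share of all tested genes singled out in this way was not computed. LPS-ALI replicate 4 held the highest value of all 9 libraries for 26.9% of all tested genes, so the counts below are not particular to these genes. LPS-ALI replicate 4 stood apart on the high side for 7 genes. The gap was 0.988 of the range for Gpx2, 0.966 for Gclc, 0.959 for Srxn1, 0.949 for Txnrd1, 0.926 for Nqo1, 0.916 for Sod2 and 0.865 for Prdx5. Gsta1 also stood apart on the high side there, with a gap of 1 because the other LPS-ALI libraries were listed at 0. The same library stood apart on the low side for Prdx2, with a gap of 0.841. TMAO replicate 5 stood apart on the low side for Gss, with a gap of 0.776.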

How the results depend on the processing

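No member passed the adjusted threshold under any setting run. Of 774 recomputed differences of single genes, 711 kept their direction and 63 reversed, and 14 of the 31 genes reversed under no setting. The 711 include settings that cannot change a direction, such as limma without trend or with robust moderation, which alter only the variance. The count therefore overstates how far the directions were tried. With library weights, 51 genes of the whole table passed, and 0 to 3 when single libraries were left out (1 without LPS-ALI replicate 3, 3 without TMAO replicate 4). The cause was not tested. Library weights gave reversed values of 0.011 for Nqo1, -0.017 for Gclm, 0.012 for Txnrd1, 0.22 for Srxn1, -0.021 for Gstm2, -0.28 for Sod3, -0.23 for Prdx2 and 0.16 for Keap1. Without the X-coded libraries the values were 0.25 for Nqo1, 0.22 for Srxn1, 0.36 for Gpx2, -0.41 for Sod3, -0.21 for Cat and -0.10 for Prdx2. Without both LPS-ALI replicate 4 and TMAO replicate 5, the median of the constitutive enzymes was -0.25, and single values were 0.10 for Gclc, 0.058 for Txnrd1, 0.37 for Srxn1, -0.099 for Sod3, -0.067 for Cat, -0.38 for Prdx2 and 0.13 for Keap1. With no filter they were -0.072 for Gclm, -0.034 for Gss, -0.063 for Sod3, -0.11 for Cat and -0.028 for Prdx2. Keap1 was 0.019 with a pseudocount of 0.1 and 0.0058 with 0.5, 0.031 with a mean FPKM of at least 5, 0.0040 as TPM, 0.018 with median-of-ratios scaling, 0.027 with quantile normalization and 0.011 without mitochondrial, haemoglobin and small RNA genes. Cat was -0.0013 as TPM, and Gpx1 was 0.027 with median-of-ratios scaling and 0.024 with a pseudocount of 0.1.

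With single libraries left out, values ranged from -0.43 to 0.13 for Nqo1, -0.14 to 0.27 for Gclm, -0.57 to 0.22 for Srxn1, -0.40 to 0.076 for Gsto1, -0.20 to 0.062 for Gpx1, -1.36 to 0.25 for Gpx2, -0.29 to 0.067 for Gpx3, -0.30 to 0.27 for Sod3, -0.19 to 0.14 for Cat, -0.28 to 0.034 for Prdx1, -0.23 to 0.28 for Prdx2, -0.37 to 0.0099 for Txn1 and -0.081 to 0.18 for Keap1.

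The mouse number as a replicate block, which leaves TMAO replicate 5 without weight on the group difference, changed no call. Under the replicate block 0 genes passed, and Prdx2 was -0.049 and Keap1 0.18. Same-numbered libraries had correlations of their deviations of 0.064, -0.011, -0.033 and -0.134, so they share a number only. Low relative depth in TMAO replicate 5 (0.382) may limit how precisely low genes such as Nqo1 and Slc7a11 were measured, which was not tested.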

Other observations

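Ratios between members within a library do not depend on how libraries are scaled, and several differed in LPS-ALI replicate 4. The ratio of Gclc to Gclm, the catalytic to the modifier subunit of glutamate-cysteine ligase, was 1.62 there and 0.177 to 0.592 in the other 8 libraries. The ratio of Prdx6 to Prdx2 was 57.0 there and 3.11 to 8.21 in the others. Gpx2 to Gpx1 was 0.252 against 0.0042 to 0.0157. The ratio of Nfe2l2 to Keap1 was 5.91 against 2.54 to 4.27. The ratio of Gstm1 to Gsta4, a mu-class to an alpha-class transferase, was 2.60 in that library, 13.5 to 26.4 in the other LPS-ALI lungs and 24.3 to 48.5 in the TMAO lungs, so the groups overlapped at TMAO replicate 3. Gstm1 to Gstm2 was 1.66 in LPS-ALI replicate 4, 2.69 to 3.15 in the other LPS-ALI lungs and 3.06 to 4.17 in TMAO lungs. The ratio of Sod2 to Sod1 was 0.737 in LPS-ALI replicate 4 and 0.575 in replicate 3, the X-coded libraries, and 0.0820 to 0.219 in the other 7 libraries. These ratios were chosen after the values were seen and are given without a test.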
